A study of Mus musculus with 16 samples.

Results

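ORAI1, ORAI2, ORAI3, STIM1 and STIM2 are the 5 human transcripts of store-operated calcium entry followed here, out of 29094 identifiers on the array. They were selected on the log2 change and p of ORAI3 for mitotane against control in these same data, and the other members followed as its family. That comparison is therefore described without a test for all 5. Each was found by its human RefSeq identifier (NM_032790, NM_032831, NM_152288, NM_003156 and NM_020860), and together they had 6 of the 34127 probes. ORAI3 was read by 10 copies of 1 probe, STIM2 by 2 probes, and the others by 1 spot each.

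When a cell empties the calcium store of its endoplasmic reticulum, STIM proteins in the store membrane sense the loss and move to contacts with the plasma membrane. There they open ORAI channels, which let calcium flow in. In adrenocortical cells calcium entry after hormone stimulation is one of the signals for steroid production, aldosterone in particular.

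The tumours were xenografts of H295R, a human adrenocortical carcinoma line that makes steroids, in SCID mice, a strain without working T or B cells. Animals were treated by mouth for 28 days with mitotane plus 9-cis retinoic acid (combined), with mitotane, an adrenolytic drug, with 9-cis retinoic acid (9-cisRA), a retinoid that activates RAR and RXR receptors, or with corn oil (control). Total RNA was labelled with Cy3 and read on 1-colour Agilent arrays of a human design, 4 arrays per group on 4 slides, with 1 array of each group on each slide. Scanner data of 15 arrays were used, giving n = 3 for combined treatment and n = 4 for mitotane, 9-cisRA and control. Combined replicate 3 was read only from the series value table. GEO lists the mouse as the organism, all groups rest on 1 cell line, and mouse host cells in the tumour were not measured. Whether mouse host RNA adds to the signal of these human probes was not tested. In such bulk RNA, fewer cells of a type and less RNA per cell cannot be told apart. Whether each array stands for 1 mouse is not stated in the labels, and the spread behind the p-values may then be technical.

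Values are log2 of the processed signal relative to the array's 75th percentile, called log2 signal below, and levels of different probes cannot be set against each other. That percentile was lowest on control replicate 4, at an intensity of 224, and ran from 552 to 1061 elsewhere. Across probes, which are not independent replicates, control replicate 4 also correlated least with the rest (median r = 0.892, against 0.961 to 0.988). Combined replicate 4 and control replicate 4 had 58.0% and 61.7% of probes well above background, against 69.5% to 75.9% on the other arrays. Each change against control is therefore also given without control replicate 4. The 9-cisRA array lay at position 4 of every slide, so that this treatment and the array position cannot be told apart. Control lay at position 3 on slides 1 to 3 and at 2 on slide 4. Mitotane lay at 1, 2, 1 and 3 on slides 1 to 4, and combined treatment at 1 or 2. Position thus also differed in the other comparisons, and its part was not tested.

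ORAI3, a channel subunit that can form calcium channels alone or together with ORAI1, was selected for its difference between mitotane and control and had the widest change of the 5 there. Its log2 signals were -2.82, -2.06, -2.03 and -1.94 in mitotane replicates 1 to 4, against -3.17, -3.19, -3.31 and -3.82 in control replicates 1 to 4. These correspond to processed intensities of 158 to 209 under mitotane and 16.7 to 116 in control. Every mitotane array lay above every control array, with mitotane replicate 1 nearest to the controls. Among the 9-cisRA arrays the log2 signals were -2.71, -2.21, -3.19 and -3.09, so that replicates 1 and 2 lay in the range of mitotane, replicate 3 in that of control and replicate 4 between them. The 3 combined arrays, replicates 1, 2 and 4, had -3.06, -2.98 and -3.11 and lay close together, just above the controls and below all mitotane arrays. Combined replicate 3 is not among them. In the series value table, centred on each probe's median, it stood at 0.37. There combined replicates 1, 2 and 4 had -0.04, 0.04 and -0.08, and mitotane replicate 1 had 0.23.

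By mean log2 signal the order for ORAI3 was mitotane (-2.21 ± 0.41, SD, n = 4), 9-cisRA (-2.80 ± 0.45, n = 4), combined (-3.05 ± 0.06, n = 3) and control (-3.37 ± 0.30, n = 4). Mitotane and 9-cisRA overlapped, and so did combined and 9-cisRA. The combined mean and SD leave out replicate 3, which stood above the other combined arrays in the value table. Without control replicate 4 the control mean was -3.22 ± 0.08 (n = 3).

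**Figure D1:**
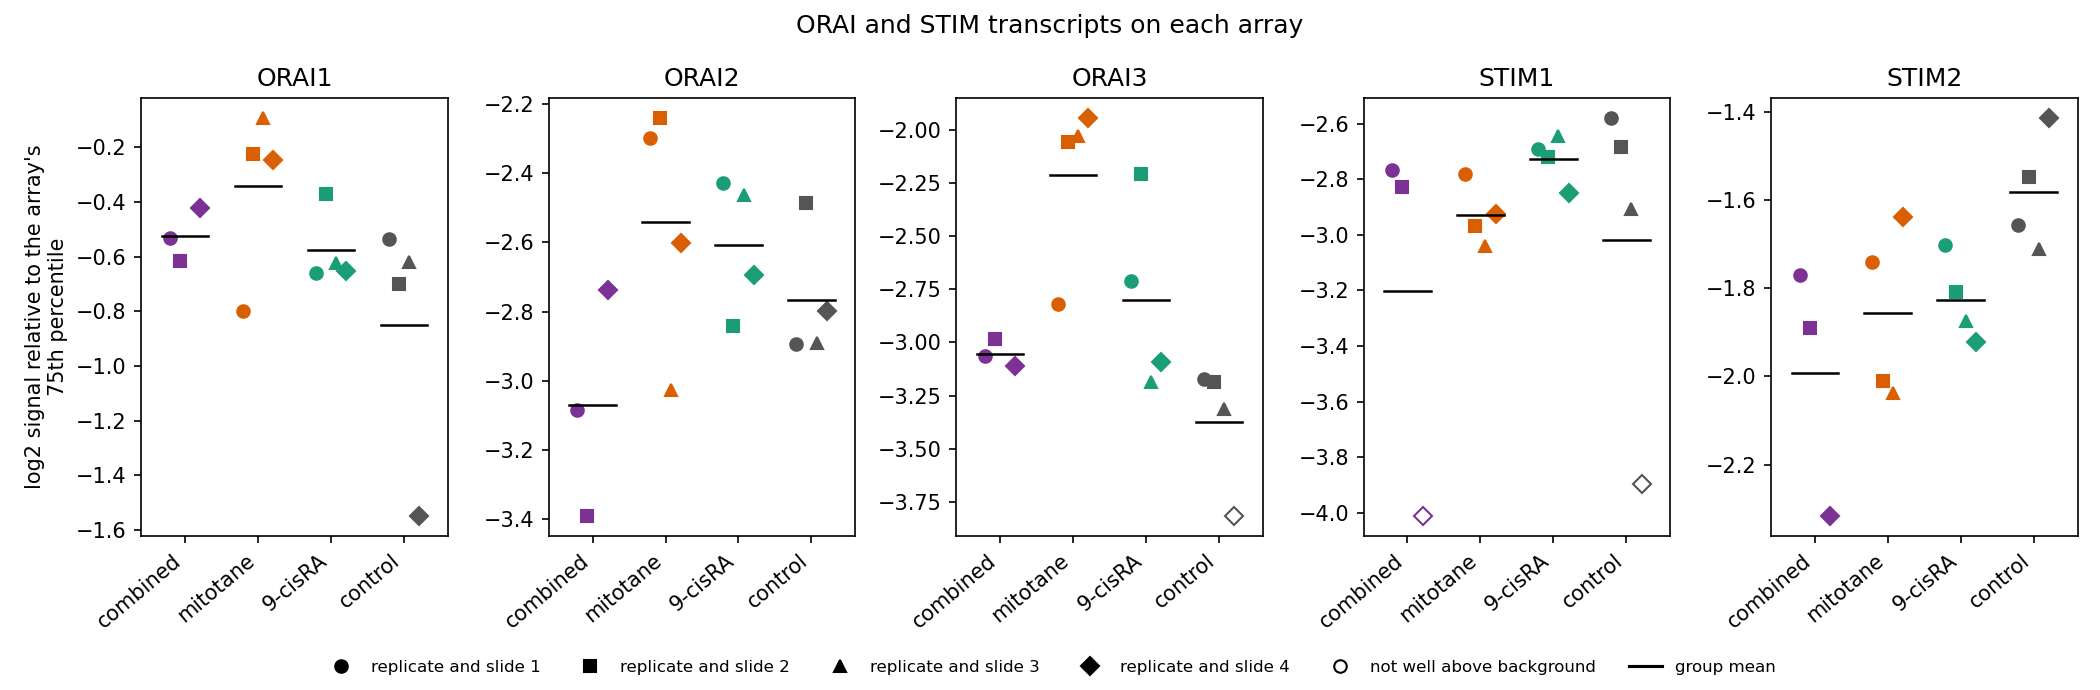
Log2 signal relative to the array's 75th percentile (vertical axis, own scale per transcript) of the 5 transcripts on 15 arrays, by treatment group. Each point is an array, its shape gives the replicate and slide, open points were not well above background, and lines are group means; for ORAI3 the mitotane arrays lie between -2.82 and -1.94, above the control arrays at -3.82 to -3.17.

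The copies of the ORAI3 probe show how precisely each array read this transcript. The SD over the 10 copies on an array ran from 0.06 to 0.24 on the log2 scale. All 10 copies were well above background on 14 arrays, and 5 of 10 were on control replicate 4, which therefore counted as not well above background. On mitotane replicate 1 the copies ran from -2.94 to -2.31, including 2 marked as outliers and left out. Those of mitotane replicates 2, 3 and 4 ran from -2.11 to -1.95, from -2.26 to -1.80 and from -2.13 to -1.68. No copy on mitotane replicate 1 reached the lowest copy on the other mitotane arrays, so that array differed from them by more than the spread between copies. On 9-cisRA replicate 2 the copies ran from -2.42 to -2.12, above every copy on the other 9-cisRA arrays.

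**Figure D2:**
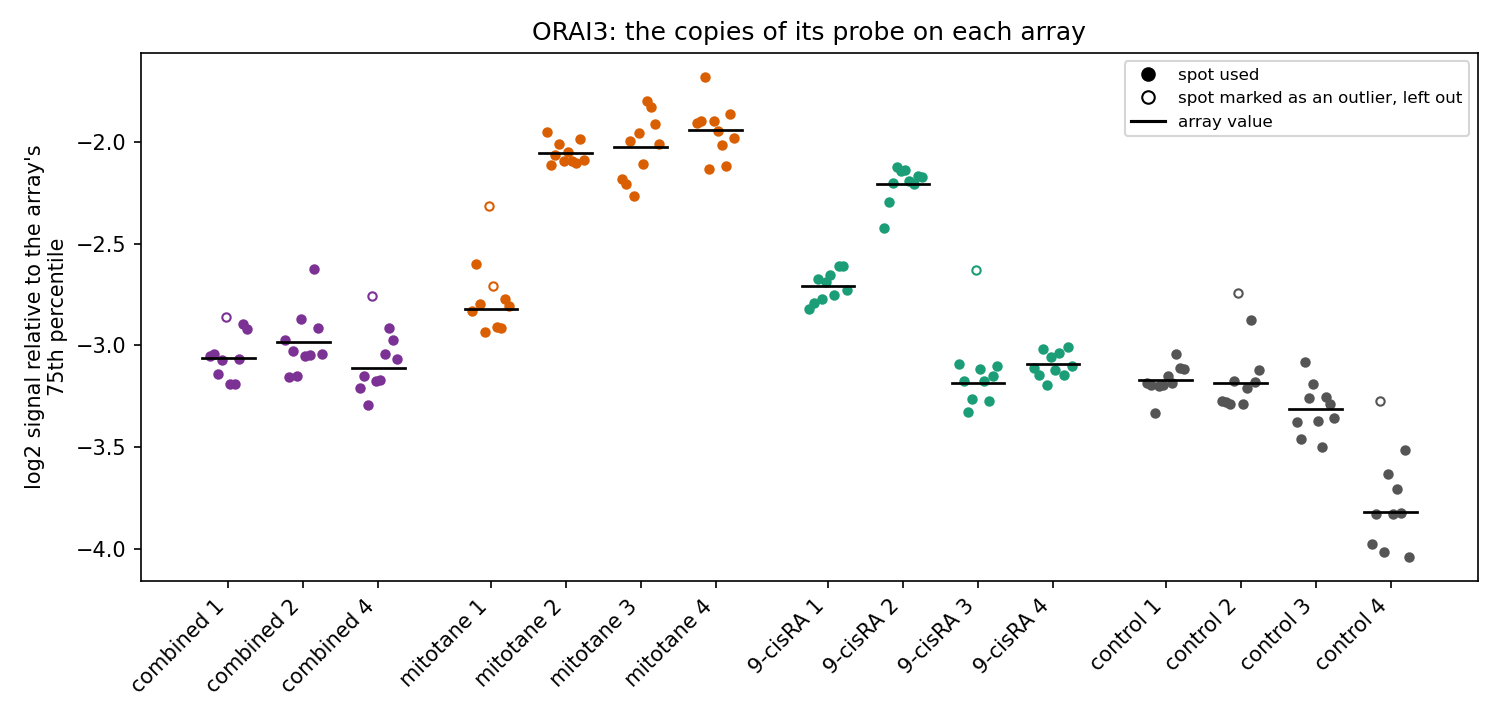
Log2 signal relative to the array's 75th percentile (vertical axis) of the 10 copies of the ORAI3 probe on each of 15 arrays (horizontal axis). Filled points were used, open points were marked as outliers, and lines are the array values; mitotane replicate 1 at -2.82 stands below the other mitotane arrays, and 9-cisRA replicate 2 at -2.21 above the other 9-cisRA arrays.

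The mitotane against control comparison chose the family, and its values are a description. ORAI3 was 2.24-fold higher under mitotane, a log2 change of 1.16 ± 0.24 (SE), or 1.01 ± 0.23 without control replicate 4. This was the 28th largest increase among 20243 transcripts tested and the 2nd smallest unadjusted p. At an adjusted p of 0.05, however, limma called 0 of the 20243 for mitotane against control, so ORAI3 was not called either. The ORAI3 shift was 0.59 after background correction with an offset and quantile normalisation (normexp), which adds 50 to every intensity. Within slides 1 to 4 the mitotane array exceeded the control array by 0.35, 1.13, 1.29 and 1.88. The direction was the same on every slide, with slide 1 the smallest and slide 4 the largest. On control replicate 4 ORAI3 was not well above background, so each slide 4 difference from control rests on a signal near the array's limit. Transcripts whose mitotane and control arrays did not overlap made up 4.24% of those tested, 3.55% with mitotane higher.

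The means of the combined and 9-cisRA arrays do not enter the change that chose ORAI3. Setting these groups against each other compares mitotane plus 9-cisRA with 9-cisRA alone. Array position differed as well, with 9-cisRA at 4 and combined treatment at 1 or 2, so position and mitotane cannot be told apart here. ORAI3 did not pass the test in this comparison. Its log2 change was -0.25 ± 0.26 (SE) for combined against 9-cisRA, with a 95% interval of -0.81 to 0.31 (adjusted p = 0.906, limma). The fit estimates 1 spread over all 4 groups, so the SE and p also draw on the mitotane and control arrays. With only the compared groups in the fit the adjusted p of ORAI3 was 0.619 (limma). Within slides 1, 2 and 4 the combined array differed from the 9-cisRA array by -0.35, -0.78 and -0.02. In the series value table, slide 3 gave 0.51, the one positive difference of the 4. With all 16 arrays of that table the change was -0.19, and without 9-cisRA replicate 2 it was -0.06. Across the alternatives tried for ORAI3 the adjusted p ran from 0.545 to 1 (limma).

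For combined against 9-cisRA, limma called 0 of 20243 transcripts at an adjusted p of 0.05 (0%). At an unadjusted p under 0.05 the count was 1913 (9.45%), and 2.04% of all transcripts were so called in the lower direction. With array weights, which let limma down-weight variable arrays, 1998 passed, none of the 5 among them. Of the 5 transcripts ORAI2 alone was below that unadjusted level, on the lower side, and it missed the adjusted one (adjusted p = 0.519, limma). ORAI2, a homologue of ORAI1 that forms store-operated channels of its own and can dampen those of ORAI1, had a log2 change of -0.46 ± 0.21. Its log2 signals were -3.08, -3.39 and -2.74 under combined treatment and -2.43, -2.84, -2.46 and -2.69 under 9-cisRA. The groups overlapped, since combined replicate 4 lay above 9-cisRA replicate 2. Within slides 1, 2 and 4 the differences were -0.66, -0.55 and -0.04, and the value table gave -0.05 on slide 3. With its 16 arrays the change was -0.35 (adjusted p = 0.648, limma), and without combined replicate 2 it was -0.30 (adjusted p = 0.836, limma). The unadjusted p was no longer under 0.05 in either case. Over all alternatives the adjusted p of ORAI2 ran from 0.0587, with array weights, to 0.836.

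STIM1, the main sensor that gates ORAI channels when stores run down, had a log2 change of -0.48 ± 0.32 for combined against 9-cisRA (adjusted p = 0.735, limma). Among the arrays with scanner data, that value rests largely on 1 array. STIM1 had log2 signals of -2.77, -2.83 and -4.01 under combined treatment, against -2.69, -2.72, -2.65 and -2.85 under 9-cisRA. Combined replicate 4, the low one, was not well above background, and without it the change was -0.07. In the value table the combined array of slide 3, which is not among those 3, was also 0.52 below its 9-cisRA neighbour (difference -0.52). With all 16 arrays of that table the STIM1 change was -0.49 (adjusted p = 0.635, limma).

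STIM2, a sensor that reacts to smaller losses of store calcium and helps hold resting calcium, had a log2 change of -0.17 ± 0.16 for combined against 9-cisRA (adjusted p = 0.894, limma), with an interval of -0.51 to 0.18. Without combined replicate 4 it was -0.0028. The within-slide differences were -0.07, -0.08 and -0.39 on slides 1, 2 and 4 and -0.09 on slide 3 in the value table, so the combined array was lower on each slide. ORAI1, the pore-forming subunit of the classical store-operated channel, had 0.05 ± 0.23 with an interval of -0.45 to 0.55 (adjusted p = 0.999, limma). Its slides differed in sign, at 0.13, -0.25 and 0.23 on slides 1, 2 and 4.

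**Figure D3:**
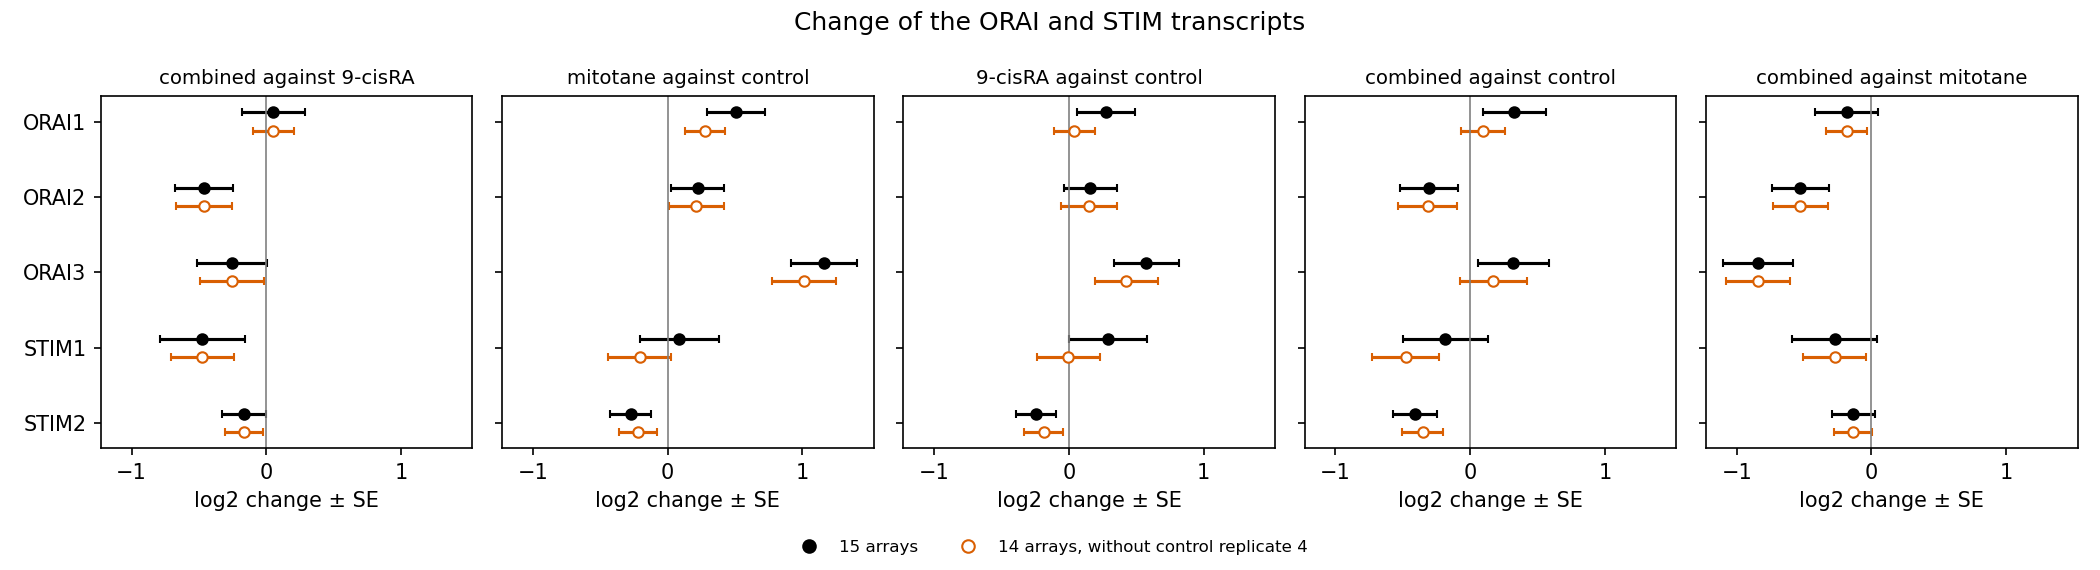
Log2 change with its SE (horizontal axis) of the 5 transcripts in 5 comparisons, with 15 arrays (filled) and without control replicate 4 (open). ORAI3 lies at 1.16 for mitotane against control and at -0.25 for combined against 9-cisRA.

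The remaining comparisons share control or mitotane arrays with the one that chose the family, and their changes are given without a test. For combined against control ORAI3 had a log2 change of 0.32 ± 0.26 (SE), or 0.17 ± 0.25 without control replicate 4. The within-slide differences were 0.11, 0.20 and 0.71 on slides 1, 2 and 4, and 0.63 on slide 3 in the value table. All were positive, and the combined arrays did not overlap with the controls, as was true of 15.2% of all transcripts in this comparison, 12.6% with combined treatment higher. For combined against mitotane the change was -0.84 ± 0.26, with -0.24, -0.93 and -1.17 on slides 1, 2 and 4 and -0.62 on slide 3 in the value table. The scanner arrays of these groups did not overlap either, as was the case for 11% of transcripts, 4.5% with combined treatment lower. In the value table, however, combined replicate 3 stood at 0.37 and mitotane replicate 1 at 0.23 relative to the probe's median, so there the groups overlapped.

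For 9-cisRA against control ORAI3 had a log2 change of 0.57 ± 0.24, or 0.43 ± 0.23 without control replicate 4. It was 0.38 without 9-cisRA replicate 2, 0.30 with array weights and 0.30 with normexp. The groups overlapped, and the differences of 0.46, 0.98, 0.13 and 0.73 on slides 1 to 4 were all positive. The departure from additivity (combined treatment's change against control less those of mitotane and of 9-cisRA) was -1.42 ± 0.36 for ORAI3 and -1.27 ± 0.33 without control replicate 4. It contains the mitotane against control difference and so is no separate evidence.

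**Figure D4:**
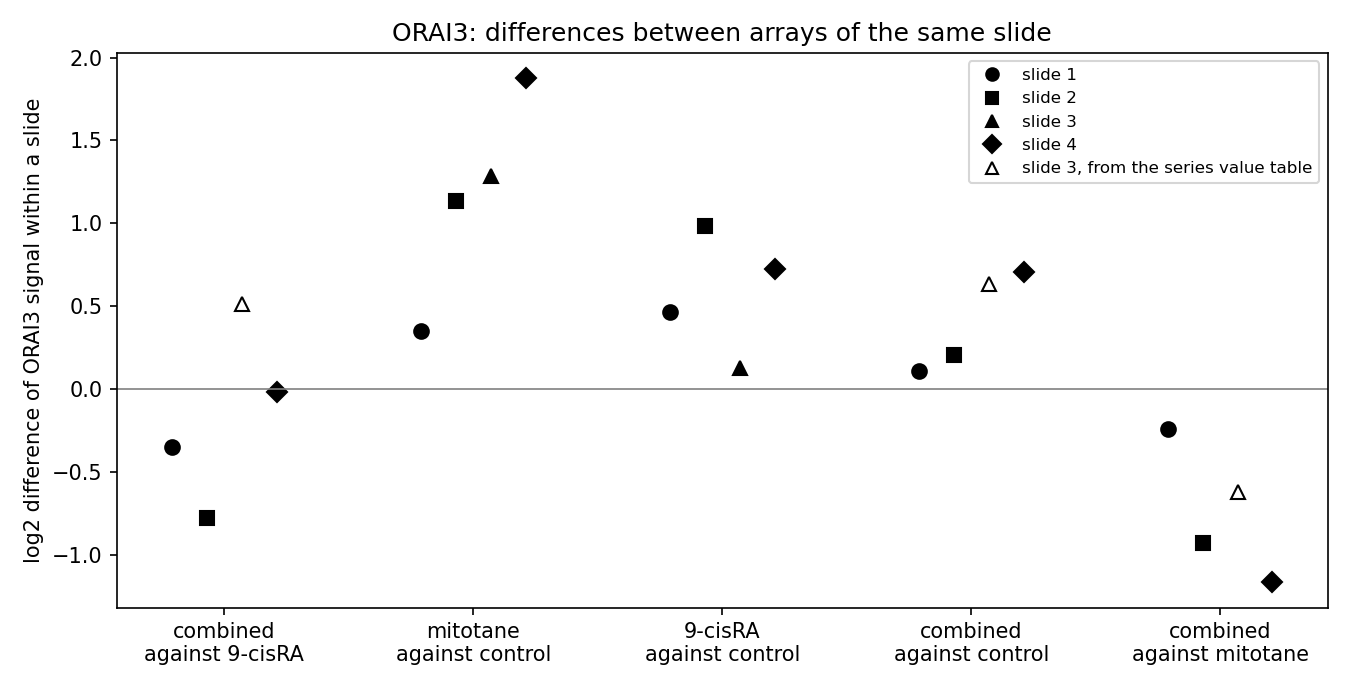
Log2 difference of ORAI3 between arrays of the same slide (vertical axis) in 5 comparisons, 1 point per slide; open triangles come from the series value table. Mitotane against control was positive on 4 of 4 slides (0.35 to 1.88), and combined against 9-cisRA ran from -0.78 to 0.51.

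ORAI1 varied over the arrays in some ways like ORAI3. Its log2 signals were -0.53, -0.62 and -0.42 in combined replicates 1, 2 and 4. They were -0.80, -0.22, -0.09 and -0.25 in mitotane replicates 1 to 4 and -0.66, -0.37, -0.62 and -0.65 in 9-cisRA replicates 1 to 4. Control replicates 1 to 4 had -0.53, -0.70, -0.62 and -1.55. Mitotane replicate 1 was the lowest of its group, 9-cisRA replicate 2 the highest and control replicate 4 the lowest, as for ORAI3. For mitotane against control the log2 change was 0.51 ± 0.22 (SE) with control replicate 4 and 0.28 ± 0.15 without it, and the groups overlapped because of mitotane replicate 1. For 9-cisRA against control it was 0.27 ± 0.22, or 0.04 ± 0.15 without that array, and for combined against control 0.33 ± 0.23, or 0.09 ± 0.16. The ORAI1 differences from control thus shrank by more than 1.5 times in all 3 comparisons without 1 control array.

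ORAI2 ranged under mitotane from -3.03 to -2.24 and in control from -2.89 to -2.49. The mean log2 signals were -3.07 ± 0.33 under combined treatment (SD, n = 3), -2.54 ± 0.36 under mitotane (n = 4), -2.61 ± 0.20 under 9-cisRA (n = 4) and -2.77 ± 0.19 in control (n = 4). Its changes against control were 0.22 ± 0.20 (SE) for mitotane, 0.16 ± 0.20 for 9-cisRA and -0.30 ± 0.21 for combined treatment. Without control replicate 4 they were 0.21, 0.15 and -0.31. All groups overlapped in these comparisons, and single arrays set the size. For mitotane against control the value was 0.14 without mitotane replicate 1, 0.12 without replicate 2 and 0.39 without replicate 3. For 9-cisRA against control it was 0.10 without 9-cisRA replicate 1, 0.25 without control replicate 2 and -0.07 with array weights. For combined against control it was -0.14 without combined replicate 2, -0.47 without combined replicate 4 and -0.17 with the 16 arrays of the value table, where slide 3 gave 0.37. In combined against mitotane it changed by -0.53 ± 0.21, with differences of -0.78, -1.15 and -0.13 on slides 1, 2 and 4, but 0.54 on slide 3 in the value table. The direction was thus not the same on all slides.

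STIM1 was low on 2 arrays of slide 4, at -4.01 on combined replicate 4 and -3.90 on control replicate 4, and neither was well above background. The other 13 arrays lay between -3.04 and -2.58, including mitotane replicate 4 at -2.93 and 9-cisRA replicate 4 at -2.85 on the same slide. These 2 arrays also had the lowest shares of probes well above background, and the part this played was not tested. The STIM1 change against control was 0.09 ± 0.29 for mitotane, 0.29 ± 0.29 for 9-cisRA and -0.19 ± 0.32 for combined treatment. Without control replicate 4 the values were -0.21 ± 0.23, -0.003 ± 0.23 and -0.48 ± 0.25. The first 2 therefore turned in sign with 1 array, and the third became 0.22 without combined replicate 4.

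STIM2 was read by 2 probes, of which 1 was mostly too dim to use. The brighter, A_23_P81048, was well above background on all 15 arrays. Its log2 signals were -1.77, -1.89 and -2.32 under combined treatment and -1.66, -1.55, -1.71 and -1.41 in control. These 2 groups did not overlap, with combined treatment lower, as was true of 2.52% of all transcripts. Its change for combined against control was -0.41 ± 0.16, or -0.35 ± 0.15 without control replicate 4 and -0.25 without combined replicate 4. Mitotane and 9-cisRA differed from control by -0.27 ± 0.15 and -0.24 ± 0.15, or by -0.22 and -0.19 without control replicate 4, with overlapping groups for mitotane (-2.04 to -1.64) and for 9-cisRA (-1.92 to -1.70) against control (-1.71 to -1.41). On each slide every treated array with scanner data (2 on slide 3, 3 on the others) was below the control array. These differences share the control arrays, and the 3 are not independent of one another. The dimmer probe, A_24_P180242, was well above background on 4 of 15 arrays. It lay between -7.42 and -5.52 on 14 arrays and at -0.93 on control replicate 4, so its changes against control are set by that array.

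The signs of the 5 changes were mixed in 4 of the 5 comparisons. Of all transcripts tested, 61.5% were higher for mitotane, 53.9% for 9-cisRA and 58.7% for combined treatment, each against control. The share was 59.3% for combined against 9-cisRA and 52.0% for combined against mitotane. For mitotane against control, the comparison that chose ORAI3, 4 of the 5 were higher and 1 was lower. The median log2 change was 0.22, beside 0.09 over all 20243 transcripts tested, or 0.21 and 0.08 without control replicate 4. Both the count and the median include ORAI3 and are a description. For 9-cisRA against control the counts were again 4 and 1, with medians of 0.27 for the 5 and 0.03 for all, and without control replicate 4 these medians were 0.04 and 0.01. For combined against control 2 were higher and 3 lower, with medians of -0.19 and 0.09, or -0.31 and 0.08 without control replicate 4. For combined against 9-cisRA 1 was higher and 4 were lower, with medians of -0.25 and 0.06. For combined against mitotane all 5 were lower, with medians of -0.27 and 0.01. That count rests on combined replicate 4, since without it STIM1 and STIM2 were higher, at 0.13 and 0.03, as both also were with array weights and without slide 4. Within slides 1 and 2 STIM1 was higher in the combined array by 0.02 and 0.14. Groups did not overlap for ORAI3 alone in mitotane against control, beside 4.24% of all transcripts. The choice of ORAI3 by that comparison favoured this, so the count is no separate evidence. Groups did not overlap for 2 of the 5 in combined against control (ORAI3 higher, STIM2 lower), beside 15.2% of all. In combined against mitotane it was ORAI3 alone, beside 11% of all, and in the value table it overlapped. The count was 0 of 5 in combined against 9-cisRA, beside 16.3% of all, and 0 of 5 in 9-cisRA against control, beside 2.39% of all.

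Transcripts that followed ORAI3 most closely were sought over 14 arrays, without control replicate 4, after each was centred on its own mean. The nearest were NM_001113490 and NM_203297, with root mean square differences from ORAI3 of 0.25 and 0.26 on the log2 scale, where ORAI3 itself had an SD of 0.50 over these arrays. The mean log2 signals of NM_001113490 were -5.37 under combined treatment, -4.83 under mitotane, -5.20 under 9-cisRA and -5.33 in control. Those of NM_203297 were -5.96, -5.20, -5.69 and -5.93 for the same groups in that order. The choice by likeness to ORAI3, on arrays that include those behind its selection, fixes that both were highest under mitotane. NM_001113490 was well above background on 2 of 3 combined, 4 of 4 mitotane, 4 of 4 9-cisRA and 3 of 4 control arrays. For NM_203297 the counts were 2 of 3, 4 of 4, 3 of 4 and 2 of 4, so it passed the filter through mitotane alone. By the same measure ORAI1 stood at 0.34, rank 69 among the transcripts tested, while ORAI2, STIM2 and STIM1 stood at 0.53, 0.54 and 0.60.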

How the data were processed

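The authors deposited each array's processed intensity for every spot, as written by Agilent's Feature Extraction software (the submitters' processing notes give 11.0.1, the file headers 11.0.1.1). The processed signal is background-subtracted and not scaled between arrays, per the file headers. For 16 arrays the authors also deposited log2 values in a value table of the series. Its differences between arrays followed the scanner values (largest median absolute difference 0.088 over 15765 probes), and each probe is centred on its median. The array medians ran from -0.074 to 0.246, and the spots behind the scaling stay unknown.

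The processed signals were divided by their 75th percentile on each array (43118 spots, controls left out) and put on a log2 scale. Outlier spots were left out, and the copies of a probe were averaged. Each of 29094 identifiers was represented by its brightest probe on average. A probe counted as well above background on an array when over 50% of its used spots were. A transcript was tested if all arrays of any 1 group were well above background (20243), all 5 members among them; ORAI1, ORAI2 and STIM2 were so on all 15 arrays. All 4 groups entered one limma fit (3.58.1, R 4.3.3, data.table version 1.17.8), with Benjamini-Hochberg adjustment over all transcripts, two-sided. Plots used matplotlib 3.10.9, and the fit was tested on simulated data.

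The members and lists were chosen with earlier results of these data known. Replicate numbers follow accession order and equal the slide, which the labels' array names give. Deviations from group means correlated between arrays of the same slide at a median r of 0.036 (21 pairs, -0.282 to 0.451), and the slide was used as a block in an alternative. Human identifiers could not be paired with symbols, since none (0) matched the mouse annotation at hand, so other pathway genes and tissue markers were not analysed here. The files hold a median but no mean spot signal, so normexp used the median signal with an offset of 50. The number of arrays limits the precision.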

Additional observations from a re-analysis of the deposited data

Results flagged for a closer look

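In 4 of 18 sets of 4 arrays examined (6 probes in 3 groups), 1 array lay farther from the rest than the 95% critical value of Dixon's test allows, where chance marks about 1 in 20. Combined treatment, with 3 arrays, was not covered. For ORAI3, mitotane replicate 1 stood at -2.82, against -2.06 to -1.94 in the other mitotane arrays. For ORAI1, 9-cisRA replicate 2 stood at -0.37, against -0.66 to -0.62 in the other 9-cisRA arrays. Control replicate 4 stood at -1.55 for ORAI1, against -0.70 to -0.53 in the other controls, and at -0.93 for the dimmer STIM2 probe, against -6.32 to -5.52. Without mitotane replicate 1 the log2 change of ORAI3 for mitotane against control was 1.36.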

How the results depend on the processing

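No transcript of the 5 passed the test for combined against 9-cisRA under any alternative tried. ORAI2, ORAI3 and STIM1 were lower under each, while ORAI1 turned to -0.019 with median scaling and -0.023 without slide 4, and STIM2 to 0.023 with array weights. With slide as a replicate block ORAI3 changed by -0.27 for combined against 9-cisRA and by 1.16 for mitotane against control, and no call changed for any of the 5. Array weights gave 3 calls for mitotane, 4 for 9-cisRA and 5786 for combined treatment against control, 1998 for combined against 9-cisRA and 103 for combined against mitotane, where the fit without weights gave 0 for each. Combined against mitotane had 1 call in the value table without control replicate 4, 1 without slide 4, and 0 to 1 when single arrays were left out. Combined against control had 1 call without slide 4, and combined against 9-cisRA 2 without control replicate 4 and combined replicate 4. The cause was not tested. Leaving out slide 4, or both of those arrays, was chosen after seeing the data. For mitotane against control ORAI3 was higher in all 29 alternatives that included it, at 0.59 to 1.36. For combined against mitotane it was lower in all, at -1.04 to -0.44. The first comparison chose ORAI3 and the second shares its mitotane arrays, so neither count is separate evidence. The values nearest 0 came with normexp, whose offset shrinks changes of dim probes by construction. The part of the offset was not separated from that of the median signal and local background used there. Averaging both STIM2 probes moved its change for combined against control to -1.12. Tests on transcripts well above background on every array left out ORAI3 and STIM1, for which control replicate 4 was too dim.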
